A study of Mus musculus with 6 samples.

Results

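The sites of accessible chromatin around 6 activity-regulated genes, Arc, Npas4, Egr1, Nr4a1, Bdnf and Homer1, were examined in adult mouse dentate gyrus. The rule for members used position and no measured value, and the genes were proposed with earlier results of these data known. Every called ATAC-seq peak that overlapped a window around 1 of the genes was taken, the window being the gene with 50 kb on each side, and touching peaks of the 6 libraries were merged. This gave 47 merged regions of the 70575 on chromosomes 1 to 19 and X. ATAC-seq marks open DNA by the insertion of sequencing adapters by the transposase Tn5. The tissue was the dentate gyrus, the hippocampal region of the granule cells, dissected from C57BL/6 mice 8 weeks old (the strain label carries another final number in each later sample). The mice had received adeno-associated virus (AAV) expressing EYFP, a fluorescent protein used as control (3 libraries), or cFos, an AP-1 transcription factor made by activated neurons (3 libraries), with 1 animal per library. The protocol text speaks of EYFP and/or cFos, so whether the cFos animals also received EYFP is not given in the sources used here, nor are the promoter of the virus, the cells infected and the time after infection. No label gives a stimulus of neuronal activity. The comparison asks whether forced cFos goes with a different set of accessible sites, here at genes that neuronal activity switches on.

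The 6 genes belong to the transcriptional programme that follows neuronal firing. Calcium entry activates kinases that act on factors already present, such as CREB and SRF, and these switch on immediate early genes without new protein synthesis. Some of these genes encode transcription factors (Npas4, Egr1, Nr4a1, and cFos itself), which act on a later set of genes, and others encode proteins that act at the synapse directly (Arc, the short form of Homer1, the growth factor Bdnf). In the dentate gyrus this programme is widely used to mark granule cells that took part in an experience.

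The promoters are shown first because CREB and AP-1 bind short motifs, and the virus supplied cFos, an AP-1 factor. RefSeq promoter sequences (GRCm38.p6) were at hand for 4 of the genes, as 11 promoters. Bdnf had 7 of them, Homer1 had 2, and Npas4 and Nr4a1 had 1 each, so counts over the 11 mostly describe Bdnf. The 250 bases before each start were searched on both strands. Arc and Egr1 were not searched. Promoters of a gene are numbered here by their order along it, and these numbers are not those of its exons. Those shown hold a match, 5′ to 3′ in the direction of transcription, with matches in capitals. In the promoters of Npas4, Nr4a1 and Homer1 and promoter 3 of Bdnf, capitals mark the core of the cAMP response element, TGACG or its reverse complement, and in Nr4a1 also the site of EGR factors, GCGNGGGCG. In promoter 2 of Bdnf they mark the AP-1 motif TGANTCA.
Npas4 (GRCm38.p6, chr19:4989972-4990221, minus strand): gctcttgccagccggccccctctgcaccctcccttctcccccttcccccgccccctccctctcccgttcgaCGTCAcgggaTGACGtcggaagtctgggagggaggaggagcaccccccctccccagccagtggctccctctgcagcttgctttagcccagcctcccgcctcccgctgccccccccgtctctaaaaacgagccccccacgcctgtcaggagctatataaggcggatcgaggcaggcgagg
Nr4a1 (GRCm38.p6, chr15:101266596-101266845, plus strand): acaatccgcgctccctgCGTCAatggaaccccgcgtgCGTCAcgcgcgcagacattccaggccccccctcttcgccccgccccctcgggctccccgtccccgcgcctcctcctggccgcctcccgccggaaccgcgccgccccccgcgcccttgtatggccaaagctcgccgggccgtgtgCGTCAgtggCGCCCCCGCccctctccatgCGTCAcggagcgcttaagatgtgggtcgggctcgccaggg
Homer1, promoter 1 (GRCm38.p6, chr13:93303507-93303756, plus strand): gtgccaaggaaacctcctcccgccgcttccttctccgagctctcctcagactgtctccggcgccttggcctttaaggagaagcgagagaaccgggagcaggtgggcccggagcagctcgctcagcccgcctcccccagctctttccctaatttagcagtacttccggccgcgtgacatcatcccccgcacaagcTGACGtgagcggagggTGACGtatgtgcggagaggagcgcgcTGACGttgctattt
Bdnf, promoter 2 (GRCm38.p6, chr2:109676782-109677031, plus strand): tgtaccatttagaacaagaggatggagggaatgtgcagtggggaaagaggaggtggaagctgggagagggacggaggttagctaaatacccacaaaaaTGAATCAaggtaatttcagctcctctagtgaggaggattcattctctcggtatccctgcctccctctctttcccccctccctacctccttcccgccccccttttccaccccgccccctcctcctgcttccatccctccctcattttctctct
Bdnf, promoter 3 (GRCm38.p6, chr2:109692186-109692435, plus strand): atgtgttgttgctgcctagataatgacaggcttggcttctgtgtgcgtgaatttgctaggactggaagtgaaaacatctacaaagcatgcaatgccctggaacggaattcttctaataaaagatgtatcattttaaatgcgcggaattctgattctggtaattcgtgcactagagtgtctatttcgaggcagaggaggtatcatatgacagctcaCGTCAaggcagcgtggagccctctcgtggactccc
Of the 11 promoters, 4 held the TGACG core, with 10 matches in all: 2 in Npas4, 4 in Nr4a1, 3 in promoter 1 of Homer1 and 1 in promoter 3 of Bdnf. The core occurred in 17.8% of all 32851 promoters of the table over the same length. The AP-1 motif TGANTCA was found once, in promoter 2 of Bdnf, and in 6.75% of all promoters. The EGR motif was found once, in Nr4a1, and in 4.70% of all promoters. The full element TGACGTCA, which contains the core, was in none of the 11 (1.55% of all promoters). The exact string TATAAA of the TATA box (12.4%), the CArG box bound by SRF (1.47%) and the MEF2 site (2.92%) were also in none. Other forms of the TATA box were not searched, so its absence is not shown. A match is a stretch of letters and not a shown binding site. The peaks are on mm9, so the promoters were not placed on them.

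Regions around these genes were called in both groups, and no region was called in all 3 libraries of one group and in none of the other. Of the 47 regions, 14 were called in all 6 libraries (29.8%, against 16.8% of all merged regions) and 16 in a single library (43.7% of all). More EYFP than cFos libraries called 21 regions (44.7%, against 47.6% of all), more cFos than EYFP libraries called 8 (25.4% of all), and equal numbers called 18. The rule of 3 of 3 cFos and 0 of 3 EYFP libraries was met by 0.449% of all regions, and the opposite rule by 1.97%, so with 47 regions a count of 0 is near the background. Pooled, the windows held 5.95 regions per 100 kb, from 1.98 at Homer1 to 9.09 at Nr4a1. The median over 20829 bins of 100 kb with at least 1 region was 3, which is not the same measure as the pooled value. Read depth is unknown, so a site without a call need not be closed. In bulk tissue, fewer cells with an open site and less opening per cell cannot be told apart.

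The number of regions called in the windows overlapped between the groups. The deposited lists held 24040 to 44321 peaks, with EYFP replicate 2 the longest and cFos replicate 2 the shortest. In the 6 windows, EYFP replicates 1 to 3 called 22, 35 and 30 regions and cFos replicates 1 to 3 called 20, 22 and 26. The means were 29.0 ± 6.56 in EYFP and 22.7 ± 3.06 in cFos libraries (SD, n = 3 each; exact permutation p = 0.3). Such tests are two-sided here, and 0.1 is the smallest p that 3 against 3 libraries allow. As a share of each list, the windows held 0.0769, 0.0813 and 0.0969% of the peaks in EYFP and 0.0824, 0.0959 and 0.0836% in cFos replicates 1 to 3 (exact permutation p = 0.6). That difference turned from 0.0022 to -0.0018 percentage points without EYFP replicate 1 and to -0.0021 without cFos replicate 2. On lists cut to the length of the shortest, the mean number of regions differed by -0.67, cFos minus EYFP.

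**Figure D1:**
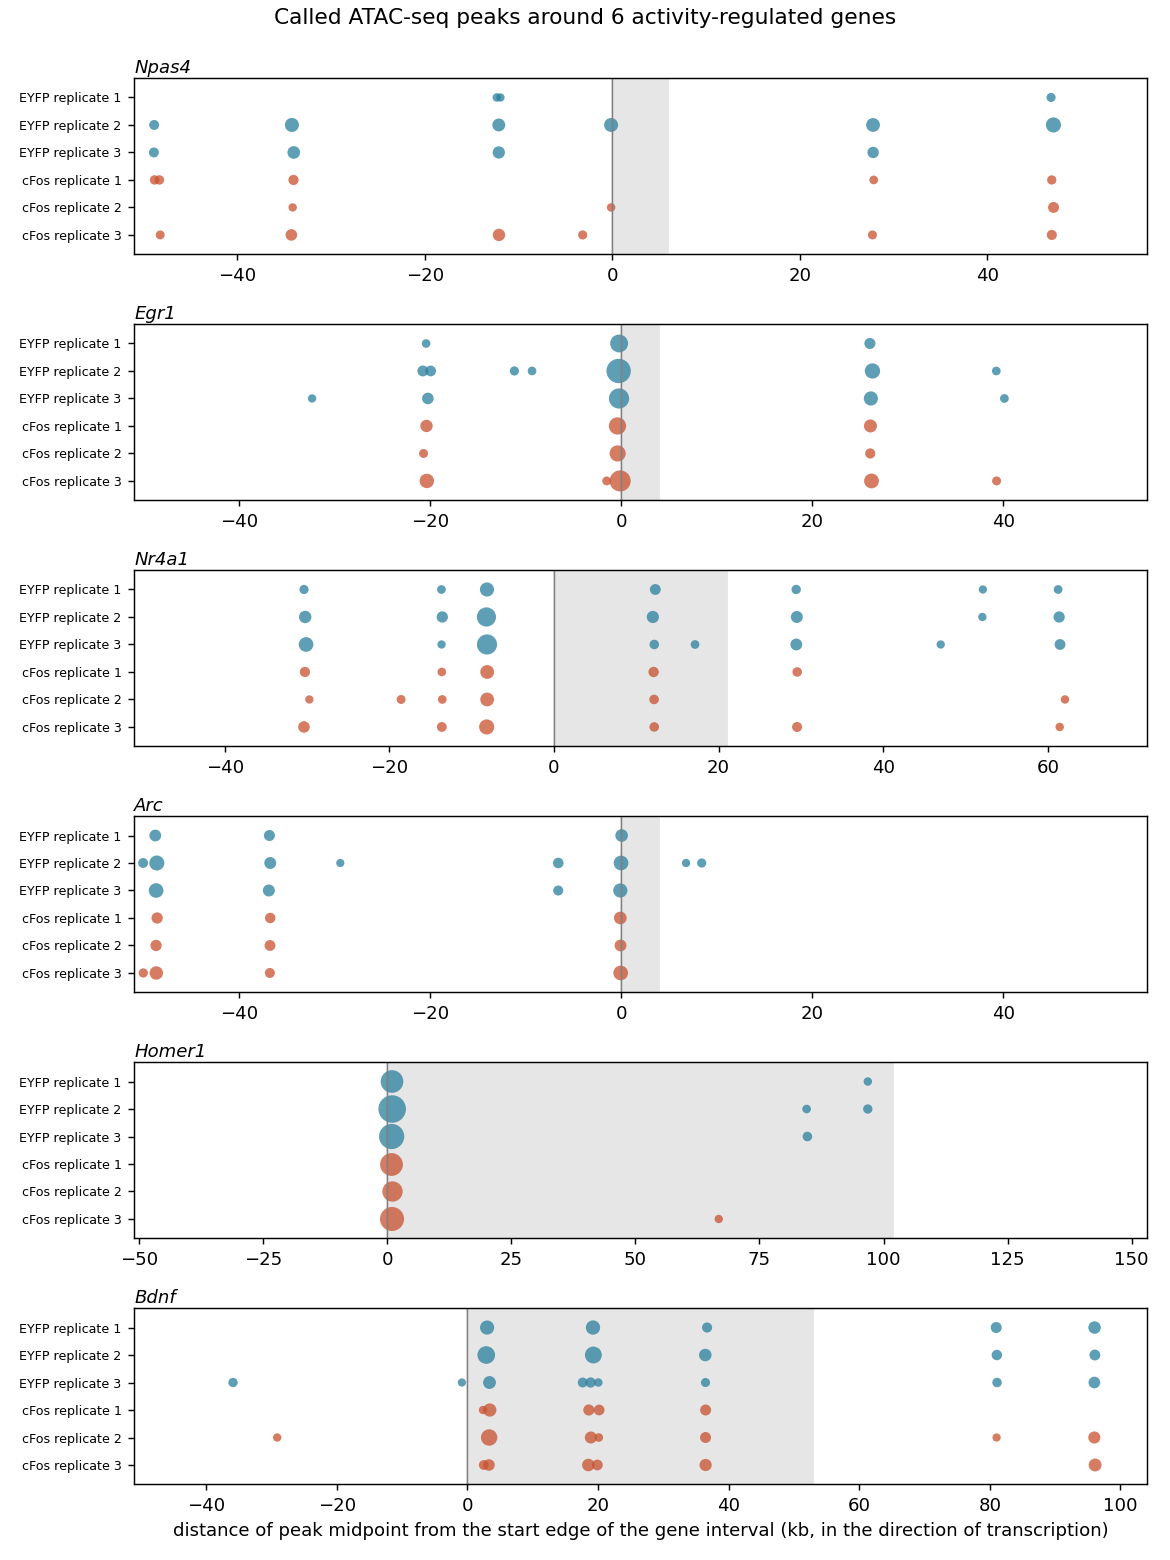
Called peaks in each library around the 6 genes. The x axis is the distance of the peak midpoint from the start edge of the gene (kb, in the direction of transcription), rows are libraries (EYFP blue, cFos red), the area of a dot grows with the peak's score (the authors' value) and grey marks the gene interval. The starts of Egr1, Homer1 and Arc carry a peak in all 6 libraries, and that of Npas4 in 2.

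In 5 of the 6 windows every cFos library had less sequence under peaks than every EYFP library. Summed over the windows, EYFP replicates 1 to 3 covered 22944, 30647 and 26829 bases and cFos replicates 1 to 3 covered 13849, 14317 and 19315. Every cFos library lay below every EYFP library, with means of 15827 ± 3030 and 26807 ± 3852 bases (SD, n = 3 each), a difference of -41.0% (exact permutation p = 0.1). The whole lists covered 35.1% less sequence in cFos (15.8 ± 2.66 against 24.3 ± 5.64 Mb, SD, n = 3 each). As a share of the covered sequence of each library, the windows made up 0.1001 ± 0.00603% in cFos and 0.112 ± 0.0115% in EYFP (SD, n = 3 each; exact permutation p = 0.3), values that overlapped. By gene, the libraries of the 2 groups did not overlap at Arc, Egr1, Nr4a1, Bdnf and Homer1, EYFP being higher in each, and the same was seen in 32.3% of the 9922 bins of 100 kb that every library called (the opposite in 0.605%). The windows are 104 to 202 kb long, so that share is not a like measure. On lists cut to the length of the shortest, p was 0.2 at Egr1 and 0.3 at Bdnf (exact permutation). At Npas4 the libraries overlapped, with 1051, 4842 and 3290 bases in EYFP and 1819, 1417 and 2791 in cFos replicates 1 to 3 (exact permutation p = 0.5). The Npas4 difference of -1052 bases became -2057 without EYFP replicate 1, when the groups no longer overlapped (exact permutation p = 0.1), and -161.5 without EYFP replicate 2. When all peaks were given the same width of 400 bp, the difference over the windows shrank from -10980 to -2256 bases (exact permutation p = 0.3). At that width p stayed at 0.1 at Nr4a1 alone (-667 bases, exact permutation). The differences were then -661 bases at Arc, -533 at Egr1, -400 at Homer1 and -133 at Bdnf. Median peak width in the whole lists was 437 to 479 bp in cFos and 553 to 569 bp in EYFP libraries, a difference that the value at 400 bp leaves out.

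**Figure D2:**
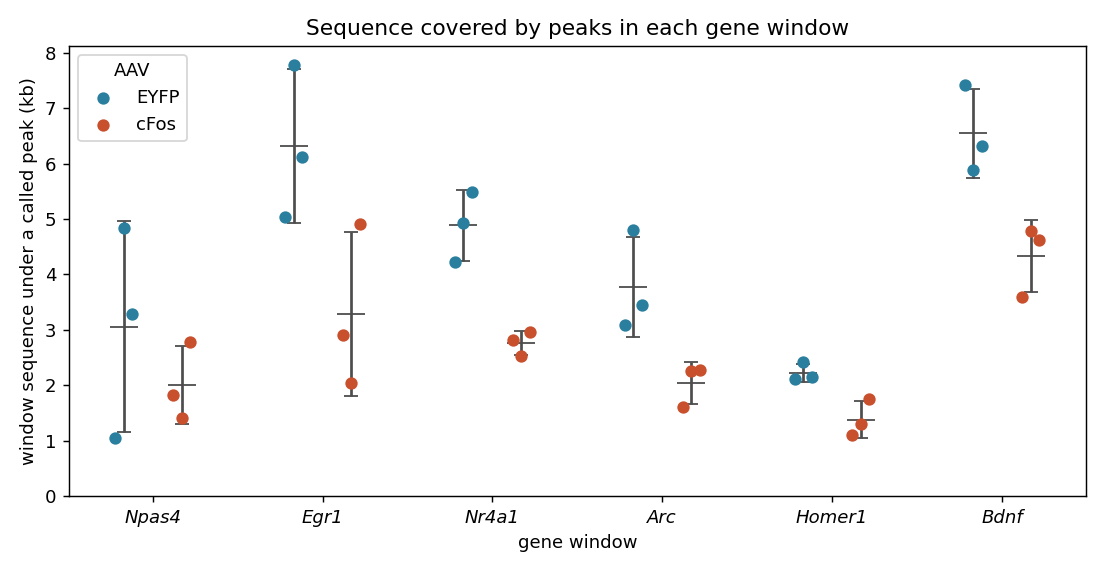
Bases of each gene window that lie under a called peak (kb, y axis), by gene and virus. Dots are libraries, horizontal bars the mean and error bars the SD (n = 3). In every window but Npas4, where EYFP replicate 1 is the lowest library, the 3 cFos libraries sit below the 3 EYFP libraries.

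Npas4 encodes a neuronal bHLH-PAS transcription factor that responds to calcium entry and takes part in the control of inhibitory synapses. Its window on chromosome 19 (4934000 to 5040000, mm9, minus strand) was the only 1 of the 6 with no region called in all libraries. The region over the gene start, from 4989811 to 4990432, was called in EYFP replicate 2 with a score of 209 and in cFos replicate 2 with a score of 57.0, at percentiles 76.9 and 17.1 of their lists, and in none of the other libraries. The score is the value that the authors gave each peak, from 50 to 3100 in every list, and its percentile is the rank within that list, so that ranks in lists of different length show no change.

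RefSeq's Npas4 promoter shown above ends 13.5 kb past the first base of the gene in GRCm38.p6. That distance is for orientation only, as the builds were not aligned. Upstream therefore means before the start edge used here, and such regions may lie inside RefSeq's gene. Away from the start, Npas4 had 7 regions. The nearest upstream, up to 3.3 kb before the start, was called in cFos replicate 3 alone, with a score of 70.9. The next, 11.6 to 12.6 kb upstream, scored 57.2, 174 and 154 in EYFP replicates 1 to 3 and 156 in cFos replicate 3, with no call in the other cFos libraries. At 33.4 to 34.6 kb upstream the scores were 211 and 165 in EYFP replicates 2 and 3 and 97.1, 54.6 and 133 in cFos replicates 1 to 3. Downstream, a region from 4942432 to 4943431 scored 70.0 and 249 in EYFP replicates 1 and 2 and 73.7, 116 and 94.0 in cFos replicates 1 to 3. Another downstream region, from 4961810 to 4962546, scored 202 and 128 in EYFP replicates 2 and 3. It scored 61.8 and 68.8 in cFos replicates 1 and 3. The region from 5038009 to 5038465, 48.0 kb upstream, was called in cFos replicates 1 and 3 alone, scoring 78.2 and 66.9. Called scores overlapped 11.6 kb upstream and at 4942432. At 33.4 kb upstream and at 4961810 every EYFP call scored above every cFos call, with no call in EYFP replicate 1. At each region named here that both groups called, the highest score came from EYFP replicate 2. Npas4 was also the gene whose mean number of called regions was higher in cFos than in EYFP libraries, within the spread between libraries: 2, 6 and 4 in EYFP and 5, 3 and 6 in cFos replicates 1 to 3 (exact permutation p = 0.8). That difference of 0.67 turned to -1 under the stricter score, on half-length lists and under 50% coverage, and to -0.33 with 20 kb flanks or without EYFP replicate 1. These Npas4 regions were picked for mention after their values were seen.

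Egr1 (Zif268) encodes a zinc finger transcription factor that is induced within minutes of synaptic stimulation. The region at its start was strong and wide in every library. In a window on chromosome 18 from 34971000 to 35075000 (mm9, plus strand), it lay from 35019111 to 35022270, from 1.89 kb before to 1.27 kb past the start edge. The scores were 361, 697 and 469 in EYFP replicates 1 to 3 and 334, 288 and 514 in cFos replicates 1 to 3, between percentiles 90.6 and 98.1 of their lists. The groups overlapped in score. In width they did not: peaks covered 2991, 2923 and 2890 bases of it in EYFP and 1110, 1040 and 2687 in cFos replicates 1 to 3 (exact permutation p = 0.1). cFos replicate 3, with a peak of its own at the upstream end, came close to the EYFP libraries, and the other cFos libraries covered less.

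A pair of further Egr1 regions was called in all libraries. The upstream one, 19.5 to 21.1 kb before the start (34999856 to 35001533), scored 59.4, 116 and 134 in EYFP and 156, 67.1 and 224 in cFos replicates 1 to 3. Here cFos replicates 1 and 3 were above every EYFP library and cFos replicate 2 was below 2 of them. The downstream one, from 35046657 to 35047863, scored 119, 255 and 215 in EYFP and 176, 95.4 and 237 in cFos replicates 1 to 3, and the groups overlapped. The remaining 5 Egr1 regions were each called in 1 or 2 libraries, and cFos libraries called only 1 of them, 39.0 to 39.5 kb past the start edge, with a score of 66.7 in cFos replicate 3.

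Nr4a1 (Nur77) encodes an orphan nuclear receptor that acts as an immediate early transcription factor. Its window on chromosome 15 (101035000 to 101156000, mm9, plus strand) held 11 regions, the most of the 6, and 4 of them were called in all libraries. No region lay within 2 kb of the start edge of the gene interval. The strongest was upstream, 7.73 to 8.57 kb before that edge (101076428 to 101077273), with scores of 213, 421 and 466 in EYFP and 202, 201 and 248 in cFos replicates 1 to 3. EYFP replicates 2 and 3 were above all cFos libraries, and EYFP replicate 1 lay among them. Inside the interval, a region 11.6 to 12.65 kb past the edge (101096635 to 101097646) scored 113, 151 and 79.98 in EYFP and 100, 81.3 and 80.1 in cFos replicates 1 to 3, and the groups overlapped. RefSeq's Nr4a1 promoter shown above ends 12.9 kb past the first base of the gene in GRCm38.p6, a distance given for orientation only, as the builds were not aligned.

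The other common regions of Nr4a1 lay further upstream. At 29.5 to 30.7 kb (101054269 to 101055494) the scores were 72.7, 158 and 232 in EYFP and 97.7, 53.4 and 133 in cFos replicates 1 to 3. At 13.2 to 13.95 kb (101071053 to 101071806) they were low throughout, with 62.0, 125 and 52.7 in EYFP and 60.3, 61.3 and 87.5 in cFos replicates 1 to 3. Nr4a1 was the only window where the number of regions did not overlap, with 7, 7 and 8 in EYFP and 5, 6 and 6 in cFos replicates 1 to 3 (exact permutation p = 0.1). The mean difference of -1.67 regions became -0.33 on equal-length lists and with 20 kb flanks, and 0 on half-length lists. In 4.55% of the bins of 100 kb every EYFP library called more regions than every cFos library, and in 0.433% the reverse held. On equal-length lists 1 Nr4a1 region, 61.0 to 61.7 kb past the edge, was called in all EYFP and no cFos libraries, since the peak of cFos replicate 3 there, with a score of 56.3, fell outside the shortened list.

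Arc encodes a cytoskeletal protein of the synapse that promotes the removal of AMPA receptors, and its RNA travels to active dendrites. Its window on chromosome 15 ran from 74449000 to 74553000 (mm9, minus strand), and the region across its start lay from 74502490 to 74503524. It scored 164, 234 and 216 in EYFP and 166, 141 and 233 in cFos replicates 1 to 3, between percentiles 72.4 and 83.4. The scores overlapped, and the bases under peaks did not, with 941, 779 and 853 in EYFP and 545, 656 and 524 in cFos replicates 1 to 3 (exact permutation p = 0.1).

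Arc's expression is known to depend on an activity-responsive enhancer several kilobases upstream, and the only region called there was not called in every library. It lay 6.24 to 6.96 kb before the start edge (74509242 to 74509962) and scored 106 and 92.3 in EYFP replicates 2 and 3, near the middle of their lists. Neither EYFP replicate 1 nor any cFos library called it, so calls did not set the groups apart. Among all merged regions, 47.6% were called in more EYFP than cFos libraries. Whether this region is that enhancer was not tested. It was picked for mention after its values were seen. Of the 2 further regions called in all libraries, the one 36.5 to 37.3 kb upstream (74539476 to 74540263) scored 118, 143 and 145 in EYFP and 102, 114 and 91.1 in cFos replicates 1 to 3, so that every EYFP score exceeded every cFos score. The one 48.0 to 49.5 kb upstream (74551025 to 74552518) scored 138, 246 and 231 in EYFP and 124, 126 and 190 in cFos replicates 1 to 3, which overlapped. Such scores are not normalized between libraries, and in ranks among common regions neither stood apart.

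Homer1 encodes a scaffold of the postsynaptic density whose short form is induced by activity and loosens that scaffold. Its start held the strongest region of all 6 windows. In a window on chromosome 13 from 94023000 to 94225000 (mm9, plus strand), this region lay from 94073038 to 94074873, from 0.04 to 1.87 kb past the start edge. It scored 598, 898 and 746 in EYFP and 606, 474 and 678 in cFos replicates 1 to 3, between percentiles 97.1 and 99.3 of their lists. The groups overlapped in score. Peaks covered 1836, 1664 and 1571 of its bases in EYFP and 1102, 1295 and 1477 in cFos replicates 1 to 3, without overlap (exact permutation p = 0.1). The rest of the window of 202 kb was nearly empty of calls: 3 other regions, all in the gene interval and none in the flanks, were called in 1 or 2 libraries with scores of at most 81.3.

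Bdnf encodes a secreted growth factor of synapses, and several promoters each join their own first exon to a common coding exon. Its window on chromosome 2 (109465000 to 109618000, mm9, plus strand) held 3 regions called in all libraries, all of them inside the gene interval. The first, 1.74 to 4.33 kb past the start edge (109516740 to 109519332), scored 214, 351 and 171 in EYFP and 184, 299 and 134 in cFos replicates 1 to 3. The second was the widest Bdnf region, 17.4 to 20.5 kb past the edge (109532377 to 109535515), and scored 219, 318 and 98.2 in EYFP and 121, 147 and 161 in cFos replicates 1 to 3. In both the groups overlapped in score, and EYFP replicate 3 was below EYFP replicates 1 and 2. RefSeq's Bdnf promoters 2, 3, 4 and 5, numbered by order along the gene, lie 2.33, 17.7, 18.3 and 19.7 kb past promoter 1 in GRCm38.p6. These distances are for orientation only, as the builds were not aligned.

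The third common Bdnf region was the only common region of the 6 genes ranked higher in every cFos library. It lay 36.1 to 37.2 kb past the edge (109551137 to 109552212) and scored 93.7, 160 and 69.1 in EYFP and 116, 116 and 151 in cFos replicates 1 to 3, which overlapped. The percentiles of the whole lists overlapped too, at 50.4, 68.4 and 31.3 in EYFP and 64.1, 64.5 and 71.6 in cFos replicates 1 to 3. The groups were apart only in ranks among the 11837 regions that all 6 libraries called, the same list in each, as percentiles from 0 to 100. The region stood at 13.3, 14.5 and 4.02 in EYFP and at 29.9, 36.2 and 30.1 in cFos replicates 1 to 3. The means were 10.6 ± 5.75 and 32.1 ± 3.58 (SD, n = 3 each), a difference of 21.4 percentile points. The region was named because its ranks do not overlap, so its p (exact permutation p = 0.1) was fixed by that choice and adds nothing. Under the stricter score and under 50% coverage 0 common regions ranked higher in every cFos library, and on half-length lists the 1 that did was the Arc start. Downstream of Bdnf, 2 regions were called by all EYFP libraries and by some cFos libraries. Both were picked for mention after their values were seen. The region 80.6 to 81.4 kb past the edge scored 118, 102 and 78.8 in EYFP replicates 1 to 3 and 51.9 in cFos replicate 2. The region 95.7 to 96.4 kb past it scored 160, 115 and 136 in EYFP replicates 1 to 3 and 149 and 172 in cFos replicates 2 and 3, with no call in cFos replicate 1, and the called scores overlapped.

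Among the 14 common regions as a set, ranks did not lean to either group. The mean rank was higher in cFos for 8 and higher in EYFP for 6, and the differences ran from -10.8 (Nr4a1, 7.73 to 8.57 kb upstream) to 24.9 percentile points (Egr1, 19.5 to 21.1 kb upstream), with a median of 2.34 against -0.07 over all common regions. Groups did not overlap in 1 of the 14 toward cFos, where 7.16% of all common regions did so, and in 0 toward EYFP, where 6.28% did. The share of 1 in 14 is near that background. For the upstream Egr1 region the ranks were 2.10, 6.02 and 23.9 in EYFP and 45.9, 9.94 and 50.8 in cFos replicates 1 to 3 (exact permutation p = 0.2). Without cFos replicate 2, both it and the downstream Egr1 region ranked higher in every remaining cFos library.

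**Figure D3:**
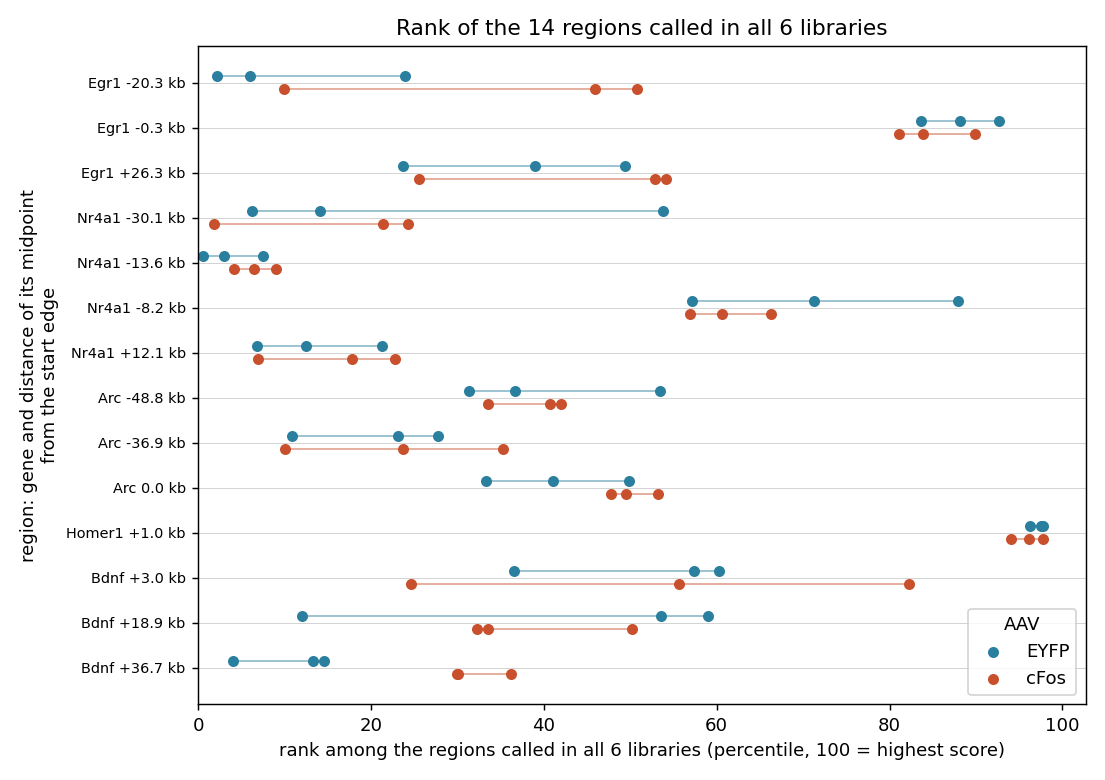
Rank of each of the 14 regions by score among the 11837 regions called in all 6 libraries (x axis, percentile, 100 = highest score), by gene and distance from its start edge. Dots are libraries and lines join the lowest and highest of each group. The groups are apart only at Bdnf +36.7 kb, and Homer1 and Egr1 starts rank above 80 in all libraries.

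At the gene starts, Homer1 and Egr1 ranked above Arc in every library. Homer1 ranked first, with 97.2 ± 0.827 in EYFP and 96.0 ± 1.86 in cFos (SD, n = 3 each; exact permutation p = 0.4). Egr1 came next, with 88.2 ± 4.53 and 85.0 ± 4.51 (exact permutation p = 0.5). Bdnf, at the common region 1.74 kb past its edge, had 51.4 ± 12.9 and 54.2 ± 28.9 (exact permutation p = 1), and Arc had 41.3 ± 8.28 and 50.1 ± 2.75 (exact permutation p = 0.3). A nearer Bdnf region, 0.25 to 1.4 kb before the edge, was called in EYFP replicate 3 alone, with a score of 51.5, and has no such rank. Homer1 and Egr1 did not overlap in rank, and neither overlapped Arc, whereas Bdnf overlapped both Egr1 and Arc. The mean of Bdnf was above that of Arc in both groups, but Arc ranked above Bdnf in EYFP replicate 3 (49.8 against 36.6) and in cFos replicate 3 (53.2 against 24.6). Bdnf's difference changed sign, to -4.84 without EYFP replicate 3 and to -10.99 without cFos replicate 2.

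Coverage of the 14 common regions was lower in cFos throughout. The mean number of bases under peaks was lower in cFos for 14 of 14 regions, with a median difference of -31.4%, against -21.5% over all common regions. In 8 of the 14 every cFos library covered less than every EYFP library (57.1%), where 34.2% of all common regions did so, and in 0 of 14 was the opposite seen (0.321% of all). The 8 were the starts of Egr1, Arc and Homer1, the Egr1 region downstream, the Nr4a1 regions 7.73 kb upstream and 11.6 kb inside, the Arc region 48.0 kb upstream and the Bdnf region 17.4 kb inside. This count was taken after the values were seen. Whether depth or fragment length differed between the groups was not tested, as the lists hold neither.

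**Figure D4:**
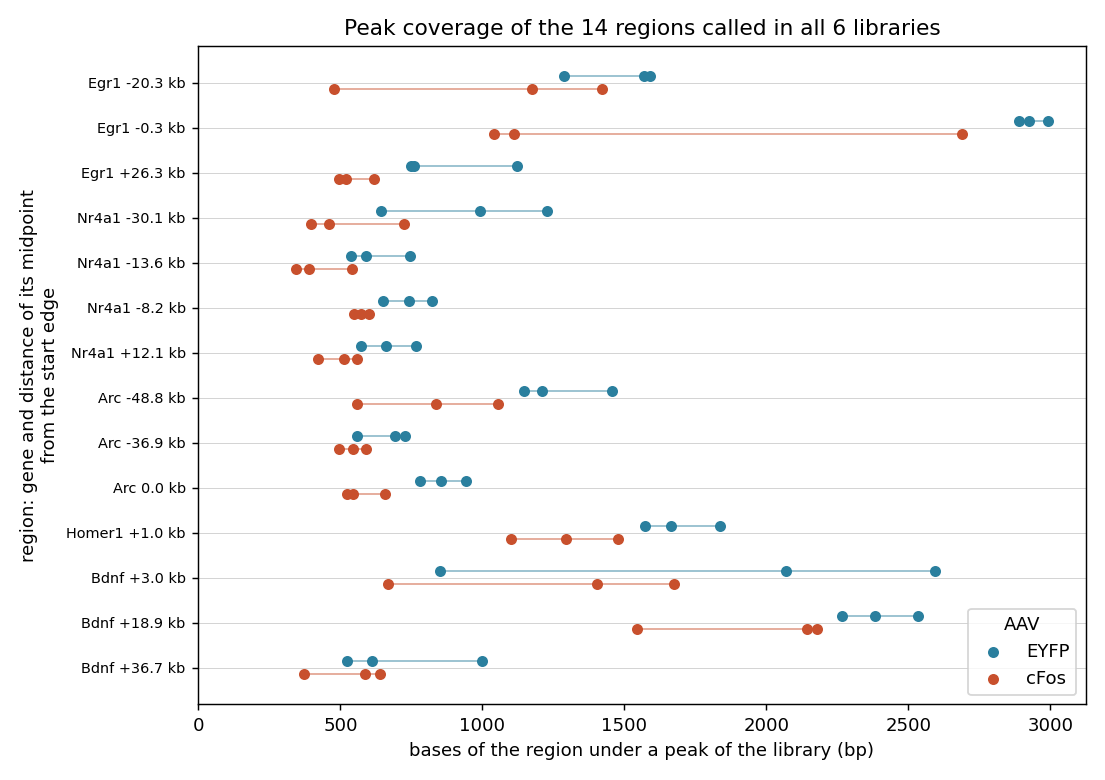
Bases of each common region under a peak of the library (bp, x axis), by gene and distance from its start edge. Dots are libraries and lines join the lowest and highest of each group. At the Egr1 start the EYFP libraries lie between 2890 and 2991 bp, and the cFos libraries between 1040 and 2687 bp.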

How the data were processed

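Peak lists of 6 ATAC-seq libraries were used, grouped by sample title. Per the submitters' processing notes, the aligner was Bowtie2 and the build mm9. The authors deposited 1 list per library, with a score for each peak. The peak names begin with MACS, per the deposited lists; the meaning of the score, the caller's settings, and how duplicates and the Tn5 shift were handled are not given. Per library, 23986 to 44285 peaks on chromosomes 1 to 19 and X were used. Read depth is unknown, so no interval for counting error is given, and the 3 animals per group set the precision.

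Peaks that touched were merged, and an overlap of 1 bp with a library's peak counted as a call. A region takes the highest score of the library in it. Gene intervals are the windows less their 50 kb flanks, given to 1 kb. The strand of Arc and Egr1 is from general knowledge and that of the other genes from the RefSeq promoter table. No mm9 annotation was used, so exons, the planned lists of other activity-regulated genes, cell type markers and likeness to other genes were not analysed here. Group means were set against all 20 assignments of 3 and 3 libraries (two-sided exact permutation test). Alternatives covered score, list length, peak width, overlap, merging gap, flanks, window membership, leaving out single libraries, and a block on the replicate number. No adjustment was made, as no p can fall under 0.1.

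The regions planned for naming are those at gene starts, those particular to a group, up to 3 further common regions by mean score percentile, and those with the largest rank difference each way. Further regions of Npas4, Arc, Egr1, Nr4a1 and Bdnf were named outside this plan, after their values were seen. Members and lists were chosen with earlier results of these data known. Same-numbered libraries did not deviate together (correlations of -0.0148, -0.00774 and 0.00300 for numbers 1 to 3), so numbers were not treated as pairs. The region and test code was tested on simulated data. Python 3.11.15, numpy 2.4.6, pandas 2.3.3 and matplotlib 3.10.9 were used.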

Additional observations from a re-analysis of the deposited data

How the results depend on the processing

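With 3 libraries per group no exact test can fall under 0.1, and no alternative did, so these values speak of direction only. The difference in bases covered over the 6 windows kept its sign under all 16 alternatives, from -14082 to -2256 bases (-12911 to -9060 with each library left out), and with the replicate block it was -10980 (exact sign-flip p = 0.25, the smallest possible). Calls of same-numbered libraries did not deviate together, though a shift in list length shared by number would not show in that check. The block keeps the mean difference, so it could change no direction. The counts of group-only and non-overlapping regions come from no test and have no block. The number of regions over the windows turned to 0.33 on half-length lists of 11993 peaks (-9.83 to -3.33 with each library left out), and the share of peaks ran from -0.0021 to 0.0082 percentage points with each library left out. At Npas4 the number of regions turned to -1 under the stricter score (above 93.4), half-length lists and 50% coverage, and to -0.33 with 20 kb flanks (-0.33 to 1.67 with each library left out), and the bases turned to 139 with peaks of 400 bp (-2057 to -161.5 with each library left out). At Egr1 the number of regions turned to 0.33 on equal-length and half-length lists, and at Bdnf to 1 on half-length lists. The rank difference at the common Bdnf region nearest the start edge ran from -10.99 to 17.01 with each library left out. Under half-length lists 1 region became cFos-only (Bdnf, 36.1 kb inside), and EYFP-only regions numbered 1 on equal-length lists (Nr4a1) and 2 under 50% coverage (Nr4a1 and Bdnf). With each library left out there were 0 to 1 cFos-only and 0 to 2 EYFP-only regions, 1 to 3 common regions ranked higher in every cFos library and 0 to 2 in every EYFP library. The former count was 0 under the stricter score and under 50% coverage, and the latter was 1 with 100 kb flanks (Homer1). The Npas4 start was called in too few libraries, and Nr4a1 had no region at its edge, so neither has a start rank; Bdnf and Egr1 have none under some settings, where their region was not common. Causes of these changes were not tested, except that shorter lists hold fewer peaks.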
